A study of Saccharomyces cerevisiae with 8 samples.

Results

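Loss of the large CAF-I subunit was set against loss of the middle one in budding yeast: the 2 cac1 mutant libraries were compared with the 2 cac2 mutant libraries, 4 of the 8 libraries of the study, chosen by their titles. Each library is a NET-seq library (native elongating transcript sequencing), in which RNA still held by RNA polymerase II is purified through a FLAG-tagged Rpb3 subunit and sequenced, so that reads report transcription in progress and not the RNA pool. The cac1 strain was YSB3062 Rpb3-FLAG cac1Δ, the cac2 strain YSB3063 Rpb3-FLAG cac2Δ, the cac3 strain YSB3064 Rpb3-FLAG cac3Δ and the wild type YSC0001 Rpb3-FLAG. All groups therefore carried the tagged Rpb3, all grew in YPD to mid-log phase, and each had 2 biological repeats. The labels name 1 strain per genotype and no second isolate, so a difference between the cac1 and cac2 strains cannot be told apart from a difference between these isolates. The wild-type strain is named in the YSC series and the mutants in the YSB series, so a change against wild type may also hold a strain difference, which cannot be told apart. The labels do not say what separates 1 biological repeat from the other, so the p-values measure the spread between these libraries.

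CAF-I (chromatin assembly factor I) places H3 and H4 histones onto newly copied DNA as a chaperone, to which the sliding clamp PCNA recruits it. Cac1 is the scaffold of the complex and holds its histone-binding and PCNA-binding regions, while Cac2 and Cac3 are WD-repeat proteins that bind to it. The complex is known in yeast for its part in silencing at telomeres and the silent mating loci, and for keeping down divergent noncoding transcription from gene promoters. In the annotation the gene for Cac1 is RLF2 and the gene for Cac3 is MSI1.

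Reads were counted by the authors on 7272 features. Of these 5171 were transcripts of open reading frames (ORF-Ts) and 329 were small RNA and other features. The noncoding ones were 925 CUTs (cryptic and unstable, removed soon after synthesis) and 847 SUTs (unannotated but stable). A second count gave the reads of a window beside the feature's 5′ end on the opposite strand, which reads divergent transcription. It ran from at most 500 bp upstream to 100 bp downstream, and most windows were shorter upstream. Of the 5498 windows counted with the ORF-Ts and other features, 1553 had the full 600 bp. Feature reads were 1959549 and 4679697 in the cac1 libraries, 2275416 and 3720649 in the cac2 libraries, 7117979 and 6604240 in the cac3 libraries, and 1880299 and 7705151 in the wild-type libraries. Levels are given in RPKM, reads divided by feature length and by the scaled total of feature reads, as the values of replicates 1 and 2. Differences are log2 values of cac1 minus cac2 with their standard error (SE). A feature was called when the adjusted p of edgeR's quasi-likelihood test was under 0.05. Genome coordinates are those of the deposited tables, which name no genome build.

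The deleted genes were read first, as a check of the labels. RLF2, on chromosome XVI from 594355 to 596379, stood at 14.1 and 13.5 RPKM in cac1 libraries, against 36.7 and 37.9 RPKM in cac2 libraries. CAC2, on chromosome XIII from 68265 to 69753, stood at 76.5 and 69.0 RPKM in cac1 libraries, against 19.5 and 20.2 RPKM in cac2 libraries. Each deleted gene was thus low in the libraries labelled with its own deletion, with no overlap between groups, and neither was at 0. RLF2 differed by -1.45 (SE 0.10, adjusted p = 7.62e-05, edgeR quasi-likelihood) and CAC2 by 1.85 (SE 0.11, adjusted p = 2.35e-05, edgeR quasi-likelihood). Where within the features the remaining reads lay was not tested, since the tables give 1 count per feature. MSI1, the gene of the subunit that both strains keep, stood at 77.8 and 77.8 RPKM in cac1 libraries and at 78.6 and 77.5 RPKM in cac2 libraries. Its difference had a 95% interval of -0.17 to 0.16. It stood at 34.5 and 30.0 RPKM in cac3 libraries and at 70.5 and 73.2 RPKM in wild-type libraries.

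Beyond the 2 deleted genes, the fit with group terms alone called 2 ORF-Ts different, both higher in cac1. In all, 3 features were higher and 1 lower of the 7271 tested, which is 0.055% of them. The first of the pair was ALD6, the cytosolic aldehyde dehydrogenase that makes acetate from acetaldehyde, on chromosome XVI from 432539 to 434155. The second was ARO10, a decarboxylase of the pathway that breaks amino acids down to fusel alcohols, on chromosome IV from 1234117 to 1236245. At an unadjusted p under 0.05 there were 276 higher and 336 lower features, 612 in all or 8.42% of those tested, against 232 or 3.19% by DESeq2. At the adjusted threshold DESeq2 called 3 higher and 2 lower, the addition being the feature shared by SNR55 and SNR57, a pair of small nucleolar RNAs.

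ALD6 stood at 322 and 293 RPKM in cac1 libraries, against 217 and 210 RPKM in cac2 libraries. It stood at 301 and 283 RPKM in cac3 libraries and at 249 and 240 RPKM in wild-type libraries. Both cac2 libraries were the lowest of the 8, and both cac1 libraries lay above both wild-type ones. The difference of cac1 and cac2 was 0.53 (SE 0.07, 95% interval 0.38 to 0.68, adjusted p = 0.0245, edgeR quasi-likelihood). Against wild type, ALD6 differed by 0.33 in cac1 (adjusted p = 0.00789, edgeR quasi-likelihood) and by -0.20 in cac2 (adjusted p = 0.0741, edgeR quasi-likelihood), values that share the wild-type libraries. Its opposite-strand window stood at 6.66 and 7.30 RPKM in cac1 libraries, at 9.40 and 7.10 RPKM in cac2 libraries and at 0.905 and 0.449 RPKM in wild-type libraries. The groups of cac1 and cac2 overlapped there, and the difference of -0.19 had a 95% interval of -1.09 to 0.72.

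ARO10 stood at 64.5 and 56.8 RPKM in cac1 libraries, against 41.0 and 35.9 RPKM in cac2 libraries. It stood at 52.7 and 49.3 RPKM in cac3 libraries and at 64.04 and 62.9 RPKM in wild-type libraries. Here the cac2 libraries were the low ones, while cac1 and wild type overlapped. The difference of cac1 and cac2 was 0.65 (SE 0.09, 95% interval 0.46 to 0.85, adjusted p = 0.0332, edgeR quasi-likelihood). Against wild type, ARO10 differed by -0.08 in cac1 (adjusted p = 0.555, edgeR quasi-likelihood) and by -0.73 in cac2 (adjusted p = 5.38e-04, edgeR quasi-likelihood), again with the wild-type libraries shared. A SUT on the other strand, SUT485, covers nearly the same stretch and stood at 34.6 and 32.3 RPKM in cac1 libraries and 37.1 and 35.2 RPKM in cac2 libraries.

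The calls of ALD6 and ARO10 depended on which libraries entered the fit. With only the cac1 and cac2 libraries fitted, both had an adjusted p of 0.181 (edgeR quasi-likelihood), and RLF2 and CAC2 were the only calls. Both calls were also lost without wild-type replicate 1 or 2, without cac1 replicate 1, and without cac2 replicate 1 or 2. That of ARO10 was lost as well without cac3 replicate 1 and with thinned libraries. The size of the difference moved little, between 0.46 and 0.60 for ALD6 and between 0.55 and 0.76 for ARO10 over all alternatives.

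**Figure D1:**
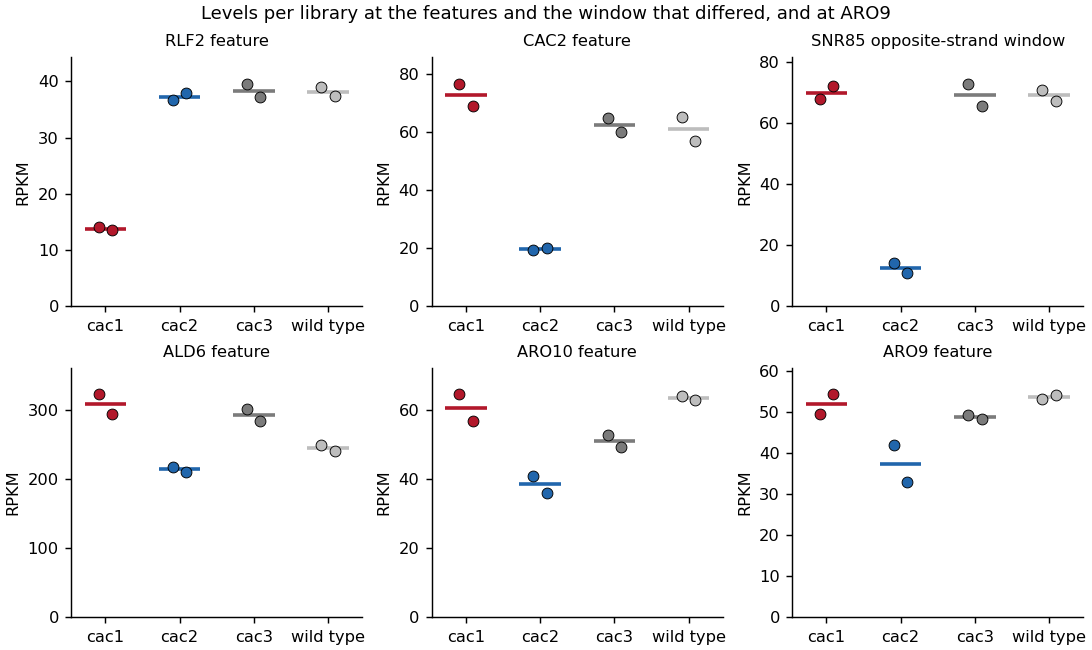
RPKM in each of the 8 libraries (points, replicate 1 left and replicate 2 right) with the group mean (bars), for 5 features and the opposite-strand window of SNR85, with groups along each horizontal axis. RLF2 is lowest in cac1, CAC2 and the SNR85 window are lowest in cac2, and ALD6, ARO10 and ARO9 have both cac2 libraries below both cac1 libraries.

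Genes next to ARO10 and ALD6 in their pathways were looked up after these values had been seen. ARO9, the aminotransferase that acts before Aro10, stood at 49.5 and 54.3 RPKM in cac1 libraries, against 41.9 and 33.0 RPKM in cac2 libraries, and at 53.2 and 54.2 RPKM in wild-type libraries. Its groups of cac1 and cac2 did not overlap, yet its difference of 0.51 (SE 0.10) had an adjusted p of 0.233 (edgeR quasi-likelihood). ARO80, the activator of ARO9 and ARO10, had groups that overlapped, and its difference of 0.05 had a 95% interval of -0.23 to 0.34. Of the other aldehyde dehydrogenase genes, the mitochondrial ALD4 stood at 58.4 and 63.2 RPKM in cac1 libraries and at 49.0 and 56.2 RPKM in cac2 libraries, and its difference of 0.21 had an adjusted p of 0.543 (edgeR quasi-likelihood). ALD5 differed by 0.03, ALD2 by 0.11 and ALD3 by -0.01, none past the threshold.

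Of the ORF-Ts that missed the threshold, COR1, YOL014W and FRE7 came nearest. COR1, a core subunit of respiratory complex III, stood at 60.9 and 59.2 RPKM in cac1 libraries, against 45.1 and 45.8 RPKM in cac2 libraries, with a difference of 0.40 (adjusted p = 0.132, edgeR quasi-likelihood). YOL014W stood at 93.9 and 102 RPKM in cac1 libraries, against 140 and 127 RPKM in cac2 libraries, with a difference of -0.42 (adjusted p = 0.202, edgeR quasi-likelihood). FRE7, a reductase gene induced when copper is low, stood at 84.5 and 73.2 RPKM in cac1 libraries and at 98.4 and 111 RPKM in cac2 libraries. In FRE7 the larger contrast lay elsewhere: it stood at 14.6 and 14.6 RPKM in cac3 libraries and at 41.6 and 42.4 RPKM in wild-type libraries, so that cac1 and cac2 were both above wild type and cac3 was below it.

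How alike the mutants were was also read from the interval of each difference, since a difference that misses the threshold does not show that levels are equal. For 5894 of 7271 features, or 81.1%, the 95% interval of cac1 minus cac2 lay inside 1.5-fold either way, and for 93.8% it lay inside 2-fold. Among ORF-Ts the share inside 1.5-fold was 92.3%, among CUTs 49.6% and among SUTs 50.2%. The share went with depth and was 7.88% for ORF-Ts with under 50 reads per library on average, 84.1% for 50 to 200 reads, 98.4% for 200 to 1000 reads and 99.1% for 1000 or more. The median distance from a difference to either end of its interval was 0.20 on the log2 scale for ORF-Ts and 0.41 for CUTs and SUTs together. At noncoding transcripts the intervals were therefore often too wide to bound a difference to 1.5-fold, and differences above 1.5-fold could also miss the threshold.

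**Figure D2:**
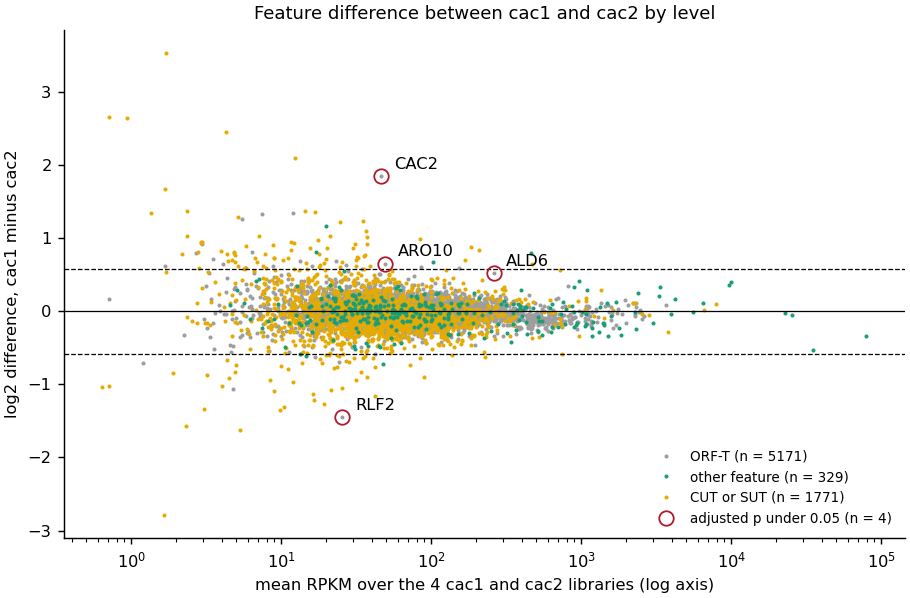
Log2 difference of cac1 minus cac2 (vertical axis) against mean RPKM over the 4 libraries (horizontal log axis) for 7271 features, with dashed lines at 1.5-fold either way. The 4 called features are circled: CAC2, ARO10 and ALD6 above 0 and RLF2 below, and the scatter widens at low levels.

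Among the pairs of groups examined, cac1 and cac2 had the fewest called features. The same fit called 99 features between cac1 and cac3, or 1.36%, and 44 between cac2 and cac3, or 0.605%. It called 1395 between cac1 and wild type, or 19.2%, and 1128 between cac2 and wild type, or 15.5%. Without wild-type replicate 2, the deepest library, the counts against wild type fell to 247 for cac1 and 210 for cac2. With single libraries left out, the pair of cac1 and cac3 gave 17 calls without cac3 replicate 2 at the lowest, and the pair of cac2 and cac3 gave 13 without cac2 replicate 2. Since depth differs between groups, all libraries were also thinned to the lowest total, which left 3 calls between cac1 and cac2, 58 between cac1 and cac3, 29 between cac2 and cac3, 814 between cac1 and wild type and 611 between cac2 and wild type. As shares of the 7267 features tested after thinning these were 0.0413%, 0.798%, 0.399%, 11.2% and 8.41%. In the thinned libraries the median absolute log2 difference over 4877 ORF-Ts was 0.111 to 0.126 for a cac1 library against a cac2 library. It was 0.103 to 0.117 for 2 libraries of the same group and 0.111 to 0.129 for cac2 against cac3. The range between cac1 and cac2 thus overlapped that between repeats, and so did the range between cac2 and cac3. The median absolute difference was 0.118 to 0.145 for cac1 against cac3, 0.144 to 0.176 for cac1 against wild type and 0.151 to 0.163 for cac2 against wild type.

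**Figure D3:**
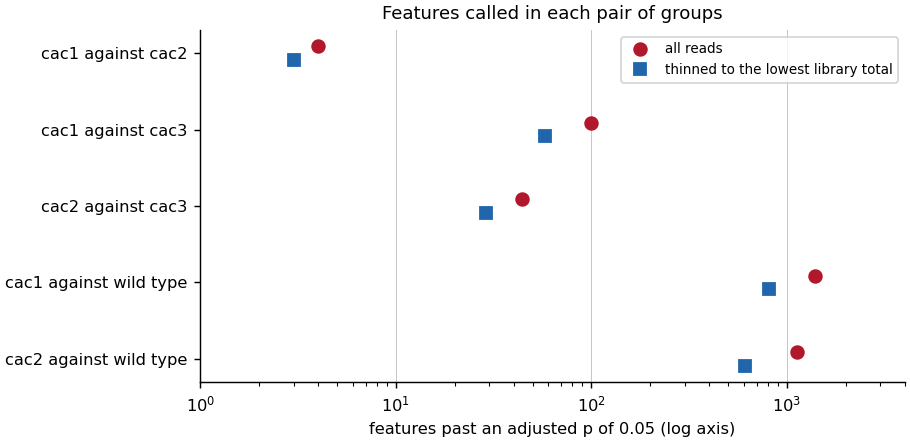
Number of features past an adjusted p of 0.05 (horizontal log axis) in each of 5 pairs of groups, with all reads (circles) and with libraries thinned to the lowest total (squares). The pair of cac1 and cac2 has 4 and 3 features, and the pairs with wild type have 611 or more.

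The ORF-Ts that moved most against wild type in both mutants were then read in all groups. Of ORF-Ts past the threshold in both and with a mean of at least 5 RPKM over cac1, cac2 and wild type, the 10 with the largest mean change all rose, and none had a difference of cac1 and cac2 whose interval excluded 0. YNR064C stood at 8.41 and 14.2 RPKM in cac1 libraries, 15.8 and 14.9 RPKM in cac2 libraries and 1.44 and 1.19 RPKM in wild-type libraries. STE3, the receptor for a-factor that is normally made only by alpha cells, stood at 19.1 and 16.8 RPKM in cac1 libraries, 22.2 and 19.1 RPKM in cac2 libraries and 2.998 and 1.89 RPKM in wild-type libraries. For both genes the wild-type libraries lay far below the mutants and the cac1 libraries lay below the cac2 ones. The interval of cac1 minus cac2 was -0.92 to 0.26 for YNR064C and -0.56 to 0.13 for STE3. The others were CAT2 (a carnitine acetyltransferase), YHL012W, SPS19 (a peroxisomal dienoyl-CoA reductase), MF(ALPHA)2 (an alpha-factor gene), PES4, YSW1, PDC6 (a minor pyruvate decarboxylase) and YNR062C, with differences of cac1 minus cac2 between -0.28 for YHL012W and 0.34 for PDC6. Intervals were wide where reads were few, at -0.89 to 1.45 for MF(ALPHA)2, which had 1 and 2 reads in the wild-type libraries. Both mutants share the wild-type libraries here, and the rule asks for a change in both, which favours genes that moved alike. The lack of a call among these genes therefore shows nothing about likeness, and their values are given side by side without a test of it.

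The genes beside the deletions were measured to see how far each deletion reached. Beside RLF2, DSS4 stood at 87.5 and 87.1 RPKM in cac1 libraries against 90.6 and 103 RPKM in cac2 libraries, a difference of -0.16 (adjusted p = 0.697, edgeR quasi-likelihood). CDC54, downstream of RLF2 and coding for an MCM helicase subunit, stood at 37.8 and 37.9 RPKM in cac1 libraries and 41.9 and 34.0 RPKM in cac2 libraries, which overlap. Beside CAC2, the feature that joins YML101C-A and CUE4 differed by 0.34 and SNR85 by 0.29, neither past the threshold. NUP188, a nuclear pore gene on the far side of SNR85, differed by 0.03. At the RLF2 locus, TIF6, a ribosome biogenesis factor beyond DSS4, differed by -0.09.

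The gene lists held no further call in that fit. They were 37 lists with 825 measured members, and the only members past the threshold were RLF2 and CAC2 among CAF-I subunit genes. The list medians ran from -0.117 for cytosolic ribosomal protein genes to 0.137 for galactose genes, against -0.001 over all ORF-Ts. Of the chromatin lists, the 16 replication fork and PCNA genes had a median of 0.01 and every interval inside 1.5-fold. The 13 other histone chaperone genes measured had a median of 0.01, with every interval inside that bound. The same held for the 14 silencing genes, whose median was -0.002 and which ran from -0.15 for SAS5 to 0.24 for SIR4.

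Cytosolic ribosomal protein genes lay mostly below 0, at lower values in cac1. Of 131 measured, 122 had a difference below 0, and the range was -0.30 for RPL35B to 0.18 for RPL8A. The list's median stayed between -0.148 and -0.080 over all alternatives, those of scaling included. Both cac1 libraries lay below both cac2 libraries in 80 of them and above in 3, against 19.7% of all features below and 17% above. Over ORF-Ts with 1000 or more reads, 32.6% lay below and 20.7% above. That level class holds many of these genes, so it is not a background independent of them. None of the 131 genes was past the adjusted threshold, and 43 had an unadjusted p under 0.05. Over all 7271 features 612 had one (8.42%), and over the 469 ORF-Ts with 1000 or more reads 89 had one. As a share of ORF-T reads the list took 11.17% and 11.65% in cac1 libraries, against 12.22% and 12.23% in cac2 libraries, 12.56% and 12.77% in cac3 libraries and 13.11% and 13.41% in wild-type libraries. The cac1 and cac2 shares did not overlap, but 2 libraries against 2 cannot give an exact two-sided permutation p below 0.333, which is the value reached. RPL35A stood at 429 and 493 RPKM in cac1 libraries against 593 and 534 RPKM in cac2 libraries, a difference of -0.28 (adjusted p = 0.365, edgeR quasi-likelihood).

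Ribosome biogenesis and histone genes also lay mostly below 0. Of 51 ribosome biogenesis genes 39 were below 0, with a median of -0.045. Of 11 histone genes 8 were below 0, with a median of -0.106. HHF1, which codes for histone H4, stood at 274 and 255 RPKM in cac1 libraries against 362 and 306 RPKM in cac2 libraries, a difference of -0.34 (adjusted p = 0.360, edgeR quasi-likelihood). The linker histone gene HHO1 went the other way, at 75.8 and 76.0 RPKM in cac1 libraries against 63.6 and 65.1 RPKM in cac2 libraries (difference 0.24, adjusted p = 0.419, edgeR quasi-likelihood). No histone gene was past the threshold, and every interval lay inside 1.5-fold.

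Other lists lay mostly above 0, at higher values in cac1. Of 27 heat shock and general stress genes 22 were above 0, with a median of 0.113. TPS1, which makes trehalose phosphate, stood at 102 and 93.4 RPKM in cac1 libraries against 79.2 and 78.5 RPKM in cac2 libraries, a difference of 0.30 (adjusted p = 0.350, edgeR quasi-likelihood). The neutral trehalase gene NTH1 stood at 45.4 and 43.0 RPKM in cac1 libraries against 33.4 and 37.5 RPKM in cac2 libraries, a difference of 0.30 as well. Of 9 hexose transporter genes 8 were above 0, led by HXT4 at 20.9 and 17.9 RPKM in cac1 libraries against 12.8 and 12.1 RPKM in cac2 libraries. Of 42 measured Gcn4 amino acid biosynthesis genes 32 were above 0, with a median of 0.040. The stress list's median ran from 0.04 without cac2 replicate 2 to 0.20 without cac2 replicate 1, so its size rested on single cac2 libraries.

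**Figure D4:**
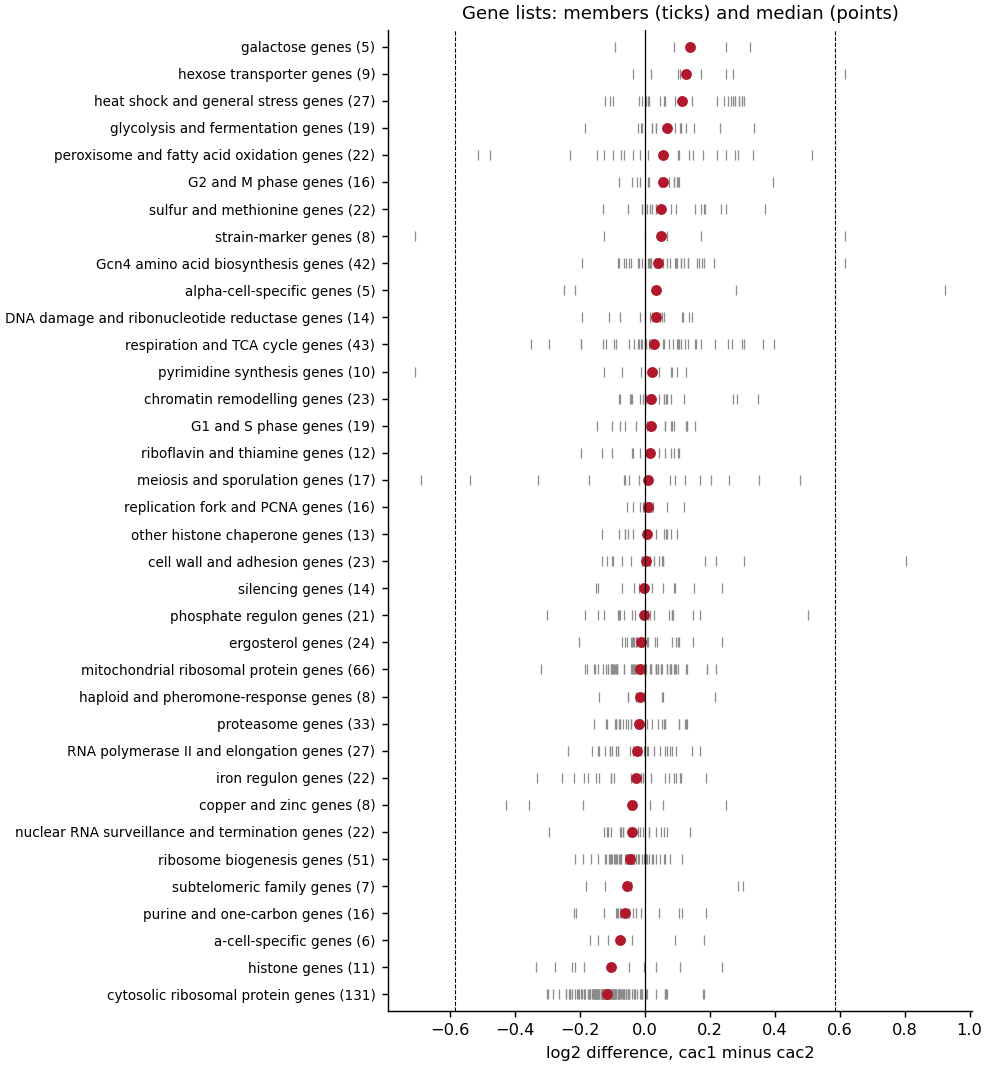
Log2 difference of cac1 minus cac2 for each measured member (ticks) and the median (points) of 36 gene lists, with the number of members in brackets, ordered by median, and dashed lines at 1.5-fold either way. Medians lie between -0.117 and 0.137, with cytosolic ribosomal protein genes lowest.

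Markers of mating type gave no call between the mutants. All 6 a-cell genes measured, but 3 of 5 alpha-cell genes, had intervals inside 1.5-fold. The a-cell genes STE2 (500 and 472 RPKM in cac1 libraries, 502 and 498 RPKM in cac2 libraries) and MFA1 (339 and 331 RPKM in cac1 libraries, 329 and 387 RPKM in cac2 libraries) were high in all 4 libraries. The alpha-cell genes did not share 1 level. SAG1 stood at 38.2 and 27.1 RPKM in cac1 libraries, 33.6 and 28.4 RPKM in cac2 libraries and 40.5 and 25.7 RPKM in wild-type libraries. The alpha-factor gene MF(ALPHA)1 was low, at 3.23 and 4.50 RPKM in cac1 libraries and 1.87 and 2.29 RPKM in cac2 libraries, a mean of 4.75 reads. Its groups did not overlap, and its difference of 0.93 had a 95% interval of -0.90 to 2.75. Groups were also apart at STE6 (0.18, cac1 higher), AGA2 (-0.15), STE3 (-0.21) and YLR040C (-0.25, the last 3 lower in cac1), none past the threshold. Over all features the groups were apart in 36.8%, so such a separation is common and not particular to these markers.

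In the same fit noncoding transcripts gave no call between cac1 and cac2, in either direction, for 1771 CUTs and SUTs tested. At an unadjusted p under 0.05 there were 56 higher and 90 lower, and DESeq2 called none. A CUT or SUT counted as divergent if it began up to 500 bp upstream of an oppositely transcribed ORF-T. Of the rest, it counted as antisense if 50% or more of its length lay across one. The divergent class can therefore also hold transcripts that lie across an ORF-T, as SUT485 does at ARO10. The 458 divergent CUTs had a median difference of -0.09, with 315 below 0, and the 400 divergent SUTs one of -0.055, with 238 below 0. The 248 antisense CUTs had a median of 0.04, with 136 above 0, and the 223 antisense SUTs tested one of 0.01. The median level of divergent CUTs was 64.6 and 68.8 RPKM in cac1 libraries, against 70.6 and 72.0 RPKM in cac2 libraries and 71.4 and 74.7 RPKM in wild-type libraries. The antisense CUT median changed sign, to -0.04, without cac1 replicate 2, while the divergent CUT median stayed between -0.109 and -0.053 over all alternatives. Without cac2 replicate 2 the median was -0.053 for divergent CUTs and -0.012 for divergent SUTs, the values nearest 0 among the alternatives.

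The CUTs with the lowest p-values were chosen after their values had been seen. CUT117, antisense, on chromosome V from 425233 to 425529, stood at 197 and 217 RPKM in cac1 libraries, against 129 and 128 RPKM in cac2 libraries (difference 0.71, SE 0.12, adjusted p = 0.132, edgeR quasi-likelihood). CUT274, antisense, on chromosome XII from 899719 to 899895, stood at 250 and 278 RPKM in cac1 libraries, against 155 and 145 RPKM in cac2 libraries (difference 0.84, SE 0.15, adjusted p = 0.134, edgeR quasi-likelihood). In both the wild-type libraries were lower than the cac1 ones, at 108 and 95.5 RPKM for CUT117 and at 123.4 and 151 RPKM for CUT274. CUT320, which diverges from NRD1, the gene of an RNA-binding termination factor, stood at 109 and 109 RPKM in cac1 libraries, against 174 and 158 RPKM in cac2 libraries (difference -0.60, adjusted p = 0.202, edgeR quasi-likelihood). The window of NRD1 shares reads with CUT320, and stood at 49.9 and 49.4 RPKM in cac1 libraries against 78.8 and 70.1 RPKM in cac2 libraries.

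The opposite-strand windows were tested in a fit of their own. Of 7268 windows 1 was higher in cac1 and 0 were lower, 0.0138% of those tested, and DESeq2 called the same numbers. At an unadjusted p under 0.05 there were 85 higher and 492 lower windows, 7.94% of those tested, against 145 in all or 2% by DESeq2. The window called was that of SNR85, a small nucleolar RNA gene next to CAC2 that is read on the other strand, so its window runs along the strand of CAC2 up to the start of CAC2. It stood at 67.8 and 72.0 RPKM in cac1 libraries, against 14.2 and 10.8 RPKM in cac2 libraries, 72.8 and 65.6 RPKM in cac3 libraries and 70.8 and 67.3 RPKM in wild-type libraries. The cac2 libraries alone were low, at the locus that carries their deletion, with a difference of 2.53 (SE 0.24, adjusted p = 1.35e-04, edgeR quasi-likelihood). On the other side of the same region, the window of CAC2 stood at 1134 and 829 RPKM in cac1 libraries and 725 and 841 RPKM in cac2 libraries, which overlap. It borders SNR85 on the strand of SNR85, and its reads went with those of the SNR85 feature. They were 836 and 1462 against 887 and 1581 in cac1 libraries, and 615 and 1163 against 680 and 1250 in cac2 libraries. Whether they are divergent reads of CAC2 or reads of SNR85 was not tested.

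At the RLF2 locus the windows gave values but no call. The window of RLF2 stood at 52.5 and 41.4 RPKM in cac1 libraries, against 28.4 and 29.6 RPKM in cac2 libraries and 42.0 and 30.7 RPKM in wild-type libraries (difference 0.65, adjusted p = 0.550, edgeR quasi-likelihood). The window of DSS4, on the strand of RLF2, stood at 17.8 and 9.10 RPKM in cac1 libraries and 28.4 and 19.0 RPKM in cac2 libraries (difference -0.92, adjusted p = 0.550, edgeR quasi-likelihood). The window of MSI1 stood at 41.6 and 33.9 RPKM in cac1 libraries, 44.8 and 38.0 RPKM in cac2 libraries and 10.8 and 10.7 RPKM in wild-type libraries. Divergent reads at MSI1 were thus above wild type in both mutants, by 1.77 in cac1 and 1.92 in cac2, with an interval of cac1 minus cac2 of -0.69 to 0.39.

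Over ORF-T windows as a whole, values were slightly lower in cac1 than in cac2. The median difference over 5167 windows was -0.096, with 3404 below 0, against a median of -0.001 over the ORF-T features themselves. Both cac1 libraries lay below both cac2 libraries in 1447 ORF-T windows (28%) and above in 424 (8.21%). These shares were close to those of all windows tested, 27.7% below and 9.48% above. Windows of CUTs and SUTs gave 27.2% below and 12.4% above, with a median difference of -0.058. The sign differed by class. Windows of divergent CUTs and SUTs had medians of -0.094 and -0.1, and those of antisense CUTs and SUTs 0.059 and 0.022. For CUTs and SUTs of neither class the medians were -0.041 and -0.069. Lower values in cac1 were thus not particular to ORF-T windows, but windows of antisense CUTs and SUTs did not share them. The median window level was 45.9 and 45.3 RPKM in cac1 libraries, against 48.4 and 48.6 RPKM in cac2 libraries, 42.5 and 42.5 RPKM in cac3 libraries and 38.9 and 38.9 RPKM in wild-type libraries. Both mutants were thus above wild type, with cac2 the highest group. The median was -0.097 for the 4123 windows over no annotated feature of their strand and -0.095 for the 920 over a CUT or SUT. The windows took the scaling of the features, so this shift is measured relative to features. Scaled over the windows themselves, the median of ORF-T windows was -0.01. Such scaling sets the bulk of windows near 0, so that value does not test the shift.

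The same shift was seen within each library. Over 4134 ORF-Ts, the median log2 ratio of window to feature was -2.10 and -2.14 in cac1 libraries, against -2.01 and -1.99 in cac2 libraries. Both cac2 values lay above those of all other libraries, and the exact two-sided permutation p of cac1 against cac2 was 0.333, the smallest that 2 against 2 allows. With all libraries thinned to 1 depth, the group means differed by -0.104, against -0.119 with all reads. Window reads per 100 feature reads on ORF-Ts were 19.75 and 19.46 in cac1 libraries, against 20.84 and 21.53 in cac2 libraries, but 20.11 and 20.56 in wild-type libraries, so in that sum cac1 lay below wild type.

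**Figure D5:**
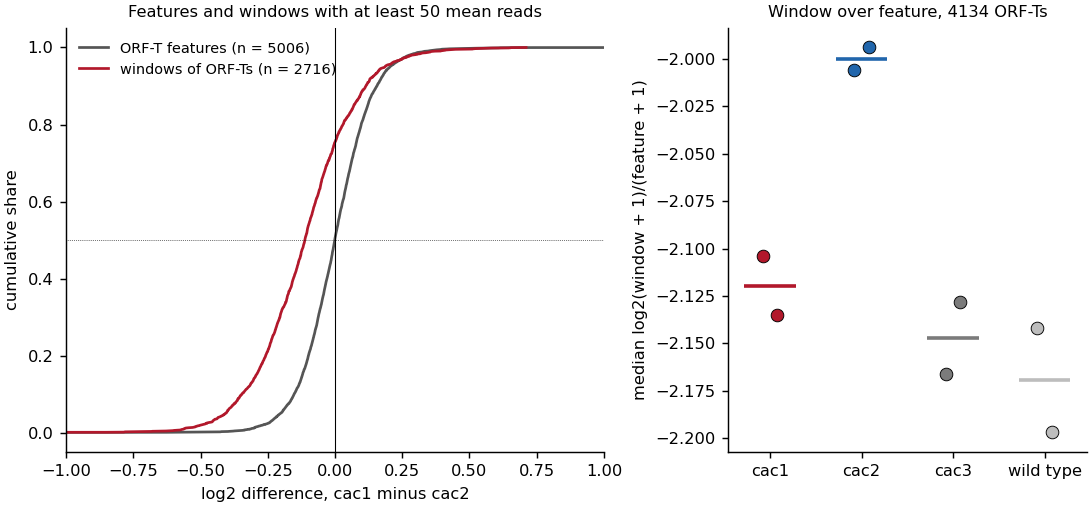
Left, cumulative share of ORF-T features and of ORF-T windows with at least 50 mean reads against their log2 difference of cac1 minus cac2. Right, the median log2 ratio of window to feature per library (points) and group mean (bars), with groups along the horizontal axis. The window curve lies left of the feature curve, and the 2 cac2 libraries, at -2.01 and -1.99, are the highest of the 8.

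When window and feature were tested together, the ratio of window to feature was called at 2 features higher in cac1 and 1 lower, of 7267 tested (0.0413%), and all of them lay at a deletion. The ratio was higher in cac1 at SNR85 (2.27, SE 0.29, adjusted p = 0.00859, edgeR quasi-likelihood) and at RLF2 (2.08, SE 0.23, adjusted p = 0.00605, edgeR quasi-likelihood). It was lower at CAC2 (-1.57, SE 0.19, adjusted p = 0.00859, edgeR quasi-likelihood). There the feature was low in cac2 and not the window, whose reads may be those of SNR85, which was not tested. At RLF2 the feature, the deleted gene itself, differed by -1.45 and was low in cac1. The window of RLF2 differed by 0.65 and was not called. None of these ratios was called with only the cac1 and cac2 libraries in the fit, or without cac2 replicate 1 or 2. Those of SNR85 and CAC2 were lost without cac1 replicate 2. At an unadjusted p under 0.05 there were 88 higher and 269 lower ratios, 4.91% of those tested, against 433 in all or 5.96% by limma on the log2 ratio. For PPT1 and its divergent SUT129, a pair known from work on promoter directionality, the ratio differed by -0.08 (95% interval -0.48 to 0.33) at PPT1. PPT1 itself stood at 83.0 and 87.2 RPKM in cac1 libraries and 93.9 and 88.6 RPKM in cac2 libraries, and SUT129 at 114 and 102 RPKM in cac1 libraries and 108 and 134 RPKM in cac2 libraries. SUT129 overlapped between the groups, and neither was past the threshold.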

How the data were processed

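NET-seq reads of the 8 libraries came as 2 tables per library. The authors gave, per the file headers, a raw read count for each feature (span). An estimated count of opposite-strand window reads was deposited by the authors, with empty windows entered as 0.5, set here to 0. Window strand and extent were inferred from the tables. No aligner, filter or build is named in the labels or headers. How reads shared by near-identical copies or overlapping features were counted is not stated either, so values of such genes (ribosomal protein and hexose transporter genes among them) are uncertain.

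Scaling factors were TMM (trimmed mean of M-values) factors computed on ORF-Ts. A feature entered the test if 2 or more libraries reached an RPKM of 1. The test was edgeR's quasi-likelihood fit (version 4.0.16), which took all 8 libraries with group coefficients. P-values were adjusted by Benjamini-Hochberg over every feature in the test, at 0.05. Standard errors came from the fitted means and moderated dispersion. Windows had a fit of their own with the features' scaling, and the ratio came from a joint model. DESeq2 1.42.0 and limma 3.58.1 were alternatives, in R 4.3.3. The biological coefficient of variation was 8.13% for features and 12.3% for windows. Scripts were tested on simulated data.

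Named genes were the called ones, the deleted genes and their neighbours, the 10 ORF-Ts of at least 5 RPKM on average changed most against wild type in both mutants, PPT1, SUT129 and the 3 ORF-Ts nearest the threshold; others are said to be chosen later. Members and lists were chosen with earlier results of these data known. Replicates 1 and 2 were not treated as pairs.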

Additional observations from a re-analysis of the deposited data

Results flagged for a closer look

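Results where the test of cac1 against cac2 itself passed the threshold are listed here. At the deletions, the feature of RLF2 differed by -1.45 and that of CAC2 by 1.85, the window of SNR85 by 2.53, and the ratio of window to feature by 2.27 at SNR85, 2.08 at RLF2 and -1.57 at CAC2. Away from the deletions, ALD6 differed by 0.53 and ARO10 by 0.65, with both cac1 libraries above both cac2 libraries in each. Whether these 2 differences belong to the deletions or to the isolates was not tested.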

How the results depend on the processing

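The features called higher and lower in cac1 numbered 3 and 1. They were 1 and 1 with only the 2 groups compared, 3 and 2 by DESeq2, and 1 to 4 higher and 1 to 2 lower when single libraries were left out. Windows called higher numbered 1 to 2 when single libraries were left out, and 0 were lower in each of those fits. The ratio gave 0 higher and 0 lower with only the 2 groups compared, and 0 to 3 higher and 0 to 1 lower when single libraries were left out. The count of features inside 1.5-fold stayed between 4893 and 6186 in all alternatives that kept this bound, and 6817 lay inside 2-fold. Thinned libraries gave 58 calls between cac1 and cac3, 29 between cac2 and cac3, 814 between cac1 and wild type and 611 between cac2 and wild type, and 35 were called between cac1 and cac3 with only those groups. Leaving out single libraries gave 17 to 125, 13 to 48, 247 to 1401 and 210 to 1246 calls for those 4 pairs, the lowest against wild type being without wild-type replicate 2. The ORF-T window median was -0.01 scaled over the windows, -0.079 by library totals and -0.121 to -0.088 with single libraries left out. Causes were not tested, apart from fewer samples or reads where the setting removes them.

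The replicate numbers were tried as a replicate block, in a fit where same-numbered libraries share a term. The labels do not say what a number stands for and each pair of groups has only 2 numbers, so the libraries share only a number. Differences between replicates 1 and 2 correlated between groups over 4877 ORF-Ts (0.446 for cac1 and cac2, 0.418 to 0.586 over the 6 pairs of groups), which is a hint from the data and not from the design. With the block, 30 features were higher and 30 lower in cac1, 11 windows higher and 10 lower, and 7 ratios higher and 10 lower, and the other pairs gave 625 calls (cac1 and cac3), 199 (cac2 and cac3), 2110 (cac1 and wild type) and 1830 (cac2 and wild type). Genes named above as not called were among these features. COR1 and ARO9 were called higher in cac1, and YOL014W, FRE7, HHF1 and 5 cytosolic ribosomal protein genes, RPL35A and RPL35B included, lower. These calls rest on a pairing that the labels do not give.

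Signs turned at some named genes, none of which was past the threshold between cac1 and cac2 in any alternative. MSI1 gave 0.001, 0.013 and 0.060 under scaling over all features, library totals and thinning. NUP188 gave -0.014 and CAT2 0.138 when thinned, CAT2 gave 0.010 and YNR062C 0.003 with the block, and the PPT1 ratio gave 0.007 with each kind of count scaled on its own. With single libraries left out, features ran from -0.145 to 0.158 for CDC54, -0.015 to 0.005 for MSI1, -0.118 to 0.163 for NUP188, -0.462 to 0.378 for CAT2, -0.240 to 1.005 for MF(ALPHA)2, -0.286 to 0.147 for PES4, -0.002 to 0.258 for YSW1 and -0.376 to 0.323 for YNR062C. The PPT1 ratio ran from -0.227 to 0.109, and windows from -0.916 to 0.179 at CDC54, -0.288 to 0.028 at MSI1 and -0.881 to 0.166 at NUP188.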
